A study of Sus scrofa with 32 samples.

Results

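The genes described here are HOXA5, HOXA7, HOXA9, HOXA10, HOXA11, HOXD8, HOXD9, HOXD10 and HOXD11, 9 genes of the pig HOXA and HOXD clusters. They were chosen by name and matched by symbol to the NCBI gene IDs of the count tables, where all 9 were found among 30185 genes. The annotation holds 36 HOX genes, and the authors' filtered tables, which leave out genes with few reads, kept 22 of them in at least 1 compartment, among them 8 of the 9. HOXA7 was kept in none.

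Endometrium was collected on Day 14 from 4 pregnant gilts and 4 nonpregnant (cyclic) control gilts. Luminal epithelium (LE), epithelium of the glands (GE), vessels (BV) and stroma (S) were cut out of tissue sections by laser capture microdissection, which lifts chosen areas under the microscope. All gilts were prepuberal animals brought into oestrus with the gonadotropins eCG and hCG. Pregnant gilts were inseminated, and nonpregnant gilts received the supernatant of semen from the same boar. Each gilt gave 1 library per compartment, with 1 exception. The GE library of gilt P41 is not part of the comparisons, so that pregnant GE has n = 3, every other group n = 4, and 31 libraries were compared. Nonpregnant gilts are named C128, C40, C42 and C78 and pregnant gilts P139, P39, P41 and P43, after their label codes without the letter of the compartment.

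HOX genes encode transcription factors that bind DNA through a homeodomain, and they lie in clusters in which the order of the genes along the chromosome follows the order in which they are switched on along the body axis. The genes at the 5′ end of the HOXA and HOXD clusters pattern the female reproductive tract, where HOXA9 marks the oviduct, HOXA10 the uterus and HOXA11 the lower uterus and cervix. HOXA10 and HOXA11 stay active in the adult endometrium under the control of steroid hormones. Female mice that lack HOXA10 or HOXA11 have few or no offspring, and loss of HOXA10 disturbs the decidual response of the stroma.

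Reference sequences of the homeobox, the stretch that encodes the homeodomain, are given for HOXA5, HOXA10, HOXA11, HOXD8, HOXD10 and HOXD11 from the RefSeq annotation of Sscrofa11.1, the build the authors mapped to. All 9 genes lie on the plus strand, and the stretches below lie in the last coding exon. They are shown because the homeobox is what the genes share, and because like stretches decide how well reads of one gene can be told from those of another. Capitals mark the codons of the core of the third helix, which touches the bases of the target DNA.
HOXA5, chr18:45432040-45432069: caaattaaaatcTGGTTCCAAAACCGGAGA
HOXA10, chr18:45401812-45401841: caagttaaaatcTGGTTTCAGAACCGCAGG
HOXA11, chr18:45390860-45390889: caagtcaaaatcTGGTTTCAGAACAGGAGA
HOXD8, chr15:81932728-81932757: caggtaaaaatcTGGTTCCAGAACAGAAGA
HOXD10, chr15:81920362-81920391: caggtcaagattTGGTTTCAAAACCGCCGA
HOXD11, chr15:81910189-81910218: caagtcaaaatcTGGTTCCAGAATCGCAGG

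Over the whole homeobox of 180 bases, genes of the same number in the HOXA and HOXD clusters were the most alike. HOXA11 and HOXD11 shared 82.2% of bases, HOXA9 and HOXD9 shared 80.6%, and HOXA10 and HOXD10 shared 78.9%. The longest run of identical bases was 17 in the first of these pairs and 14 in the other 2. HOXA5 and HOXA7 also shared 78.9% of bases, but with an unbroken run of 41 bases. A read that lies within this run could come from either gene.

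The HOXA cluster spans chr18:45373340-45480306 with 11 HOX genes, and the HOXD cluster spans chr15:81893997-81990026 with 8. Neighbouring gene models overlap in part. HOXA5 shares 257 of its 2020 exon bases (12.7%) with models of HOXA3 and HOXA6 on the same strand, and HOXA9 shares 754 of 5841 (12.9%) with LOC106506841 on the opposite strand. HOXD11 and HOXD9 share 86 exon bases, and HOXD10 lies within the span of the HOXD9 model. Counts of these genes are less certain in the shared parts, since the strand setting of the counting is not given in the sources used here.

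Total counts per library ranged from 3143100 to 7081556 in LE, 3442913 to 4788094 in GE, 2415216 to 3826691 in BV and 2832169 to 5388161 in S. Levels are given as CPM, the count of a gene scaled to the size of its library, after 1 joint TMM normalization of the 31 libraries, which sets library sizes by the bulk of the genes. The labelled compartments were checked by the summed CPM of defining genes. Epithelial markers summed to between 1640.5 and 3317.2 CPM in LE and GE and between 3.69 and 479.9 CPM in BV and S. Smooth muscle markers ranged from 1075.1 to 18132 CPM in BV, endothelial ones from 1485.7 to 3000.6 CPM in BV, and fibroblast ones from 36616 to 106300 CPM in S. BV and S overlapped for all 3 lists, with smooth muscle sums of 428.7 to 1201.3 CPM and endothelial sums of 542.0 to 2753.8 CPM in S and fibroblast sums of 25082 to 91087 CPM in BV. Fibroblast markers summed to between 2877.2 and 16514 CPM in LE and GE, where none of the 6 was at 0 in any library.

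HOXA9, HOXA10, HOXA11, HOXD8, HOXD9, HOXD10 and HOXD11 were high in S and BV, lower in LE and lowest in GE. HOXA5 did not share this order and was about as high in GE as in S. Differences between compartments were tested for 13887 genes in 1 joint quasi-likelihood fit of edgeR with the gilt as a block, with 1% as the limit of the adjusted p. These were the genes kept in the filtered table of at least 1 compartment. In bulk captures, fewer cells that express a gene and less RNA per cell cannot be told apart.

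HOXA10, which specifies the uterus in the developing tract, was at 226.8, 162.1, 173.1 and 138.1 CPM in S of nonpregnant gilts C128, C40, C42 and C78 and at 166.5, 218.7, 125.8 and 189.3 CPM in S of pregnant gilts P139, P39, P41 and P43. In GE it was 9.72, 10.1, 11.3 and 12.5 CPM in the same nonpregnant gilts and 35.8, 22.8 and 22.7 CPM in pregnant gilts P139, P39 and P43. The lowest stromal library was thus above the highest glandular one. S exceeded GE by 3.39 ± 0.21 on the log2 scale (SE), a 10.5-fold difference with an adjusted p of 2.27e-11, and was higher in 7 of 7 gilts.

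LE lay between them. HOXA10 there was 65.3, 28.6, 24.8 and 22.3 CPM in nonpregnant gilts C128, C40, C42 and C78 and 63.0, 44.9, 23.6 and 25.3 CPM in pregnant gilts P139, P39, P41 and P43, with gilts C128 and P139 above the others. BV held 183.9, 92.9, 75.2 and 98.6 CPM in the nonpregnant and 98.5, 89.1, 90.03 and 111.3 CPM in the pregnant gilts in that order, all above every LE library. S was 1.69-fold higher than BV (log2 0.76 ± 0.17, adjusted p = 0.0054). That call was lost without the gilt as a block (adjusted p = 0.0275) and without gilt P39, C40, C42, P43 or C78 (adjusted p from 0.0103 to 0.0344).

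HOXA11, which marks the caudal end of the uterus, had the same order. Its stromal level was 74.4, 68.1, 77.6 and 56.8 CPM in nonpregnant and 51.7, 68.3, 57.0 and 56.5 CPM in pregnant gilts, and its glandular level 3.67, 3.23, 5.25 and 3.18 CPM in nonpregnant and 7.48, 8.12 and 10.2 CPM in pregnant gilts. The 2 ranges were far apart. S exceeded GE 11.04-fold (log2 3.46 ± 0.19, adjusted p = 4.99e-12) and exceeded BV 1.87-fold (log2 0.91 ± 0.15, adjusted p = 0.000404). HOXA9, a gene of the oviduct in the developing tract, was 9.75-fold higher in S than in GE (log2 3.29 ± 0.25, adjusted p = 5.39e-10). Its S minus BV difference of 0.56 ± 0.21 was not called (adjusted p = 0.0766).

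**Figure D1:**
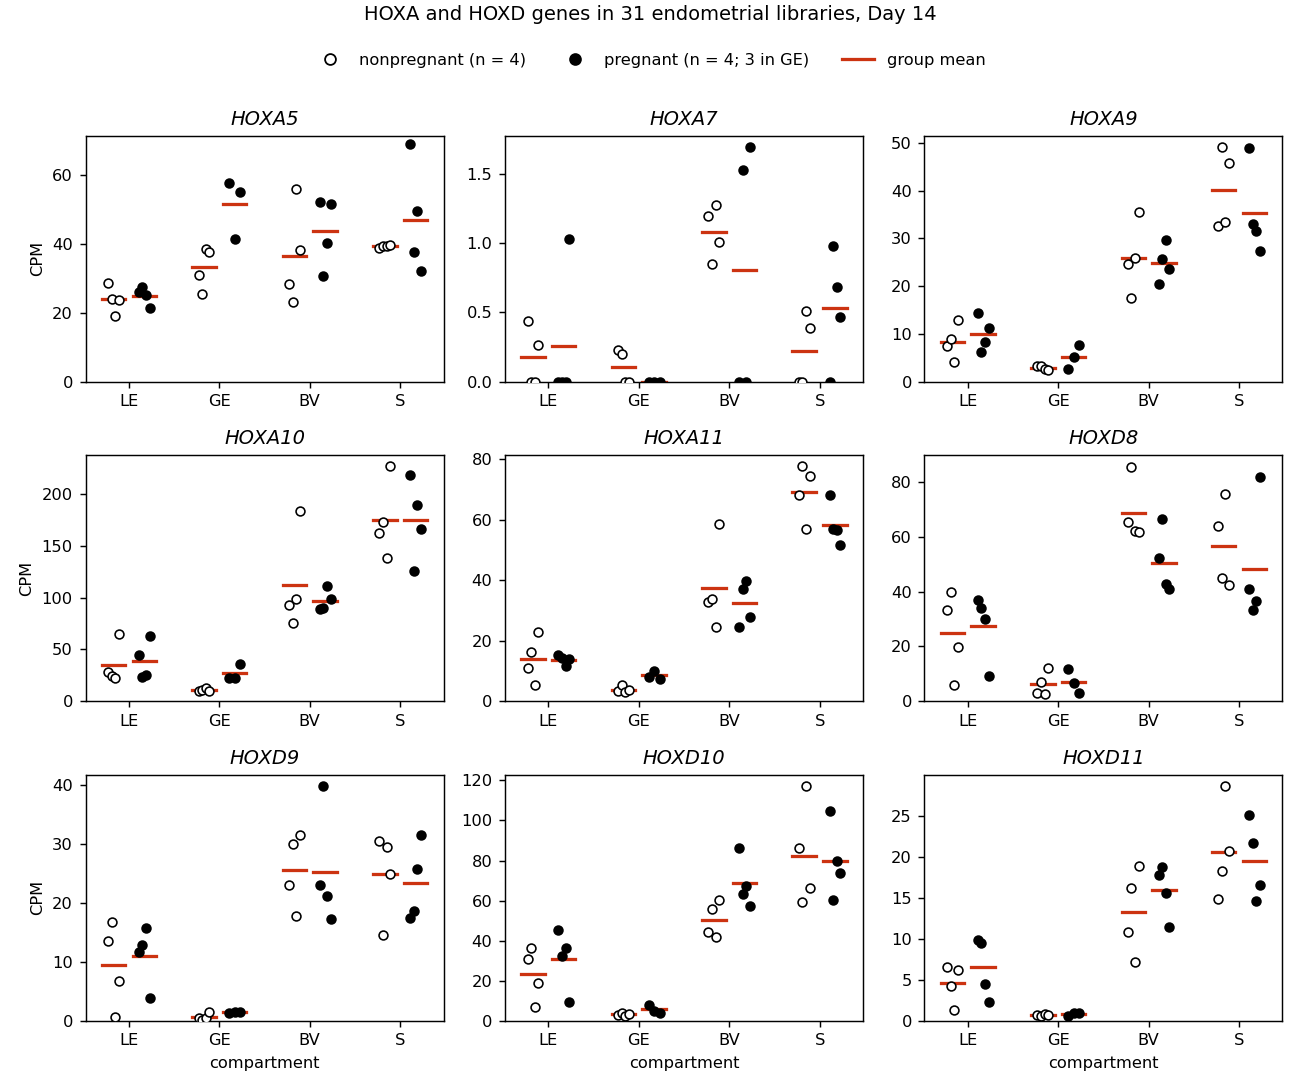
CPM (vertical axis, linear from 0, a scale of its own for each gene) of the 9 genes in LE, GE, BV and S, with 1 point per library, open for nonpregnant and filled for pregnant gilts, and a red line at each group mean. For HOXA9 to HOXA11 and HOXD8 to HOXD11 all GE points lie near the bottom, whereas for HOXA5 they reach the level of S, and HOXA7 stays under 2 CPM everywhere.

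HOXD9, HOXD10 and HOXD11 had larger S to GE ratios than the HOXA genes, though a difference between genes was not tested. HOXD10, a partner of HOXA10 in patterning, was at 66.5, 86.1, 59.4 and 117.1 CPM in S of nonpregnant gilts C128, C40, C42 and C78 and at 73.9, 104.8, 60.3 and 80.0 CPM in S of pregnant gilts P139, P39, P41 and P43. In GE the nonpregnant gilts had 3.24, 2.997, 4.04 and 2.54 CPM and the pregnant ones 4.13, 8.12 and 5.08 CPM. No glandular library came near a stromal one. The S minus GE difference was 4.29 ± 0.31 for HOXD10 (19.5-fold), 4.60 ± 0.49 for HOXD9 (24.3-fold), 4.61 ± 0.35 for HOXD11 (24.4-fold) and 3.09 ± 0.42 for HOXD8 (8.52-fold), with adjusted p between 2.29e-10 and 1.48e-06. For the HOXD9 and HOXD11 values the GE counts were low, 1 to 8 and 2 to 5 reads per library. Both genes were left out of the filtered GE table and entered the fit only through LE, BV and S, where they were higher. Their calls against GE are thus no independent support.

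Unlike HOXA10 and HOXA11, the HOXD genes were not called between S and BV. The S minus BV difference was 0.01 for HOXD9 (95% interval -0.67 to 0.69 on the log2 scale) and -0.09 for HOXD8 (-0.81 to 0.63). It was 0.49 for HOXD10 (adjusted p = 0.195) and 0.50 for HOXD11 (adjusted p = 0.196). Of the 8 genes tested, 2 were called higher in S than in BV, where 3.38% of all genes were, and HOXA11 alone was called in the fits in which HOXA10 lost its call. Of the 6 fibroblast markers 3 were called higher in S than in BV, and all 6 smooth muscle markers lower. The share of all genes called lower in S than in BV was not counted. The part of both marker lists in these differences was not tested.

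In LE the HOXD genes varied widely between gilts. HOXD10 was at 19.0, 31.02, 36.2 and 7.05 CPM in nonpregnant gilts C128, C40, C42 and C78 and at 9.51, 45.5, 32.3 and 36.2 CPM in pregnant gilts P139, P39, P41 and P43. Gilts C78 and P139 were lowest for HOXD10, and also for HOXD8 (5.92 and 9.26 CPM), HOXD9 (0.683 and 3.86 CPM) and HOXD11 (1.37 and 2.31 CPM). HOXA10 was not low in LE of gilt P139, where it was at 63.0 CPM. Summed fibroblast markers in LE were 4097.3 CPM in gilt C78 and 10262 CPM in gilt P139 against 10060 to 16514 CPM in the other 6 gilts. Endothelial sums in LE were lowest in gilts C78 (123.6 CPM), C128 (311.5 CPM) and P139 (406.7 CPM), the 3 gilts with the lowest HOXD10, against 673.6 to 1018.3 CPM in the other 5. The part of both marker lists in the low HOXD levels was not tested.

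HOXA5, a gene from the middle of the cluster that acts in lung and gut patterning, stood apart. It was at 37.6, 31.1, 25.7 and 38.6 CPM in GE of nonpregnant gilts C128, C40, C42 and C78 and at 55.3, 57.9 and 41.5 CPM in GE of pregnant gilts P139, P39 and P43. In S it was at 39.6, 38.97, 39.4 and 39.5 CPM in the nonpregnant and 32.3, 69.1, 37.7 and 49.7 CPM in the pregnant gilts, so that the ranges of GE and S overlapped. S minus GE was 0.08 (95% interval -0.26 to 0.43, adjusted p = 0.669) and BV minus GE -0.04 (-0.38 to 0.31). By gilt, S was higher than GE in 6 of 7, all but P139 (32.3 against 55.3 CPM). HOXA5 was lowest in LE, with 19.1 to 28.8 CPM, and higher in GE than in LE in 7 of 7 gilts (log2 0.70 ± 0.17, adjusted p = 0.00139).

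HOXA7 was barely read. Its counts over the nonpregnant libraries summed to 3, 2, 13 and 5 in LE, GE, BV and S, and those over the pregnant libraries to 4, 0, 8 and 7, with no library above 4. With so few reads a difference was not detectable at this depth. The exact two-sided permutation test of pregnant against nonpregnant CPM gave p between 0.286 and 1 in the 4 compartments, where the smallest possible p is 0.0286.

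By counts of the 8 testable genes, 7 were called lower and 1 higher in GE than in LE, against 25.9% and 15.5% of all genes, and their median difference was -1.57 beside -0.13 for all genes. All 8 were called higher in BV than in LE and in S than in LE, where 23.4% and 23.9% of all genes were. Of the 8, 7 were called higher in BV than in GE and in S than in GE, beside 29.9% and 31.4% of all genes. HOXD9 and HOXD11, which are among the 7, entered the fit only through LE, BV and S, which favours a lower level in GE. With BV and S averaged against LE and GE, all 8 were called higher, beside 32.3% of all genes, and HOXA5 was the least so, at 0.37 ± 0.11 (adjusted p = 0.00611). That call for HOXA5 was lost without gilt C128, P39, P43 or C78, with adjusted p from 0.017 to 0.0349, and without the LE libraries of gilts C78 and P139 (adjusted p = 0.022).

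Markers of other cell types moved with these genes. All 6 fibroblast, all 6 endothelial, all 6 smooth muscle and 4 of 5 leukocyte markers tested were called higher in BV and S than in LE and GE, beside 32.3% of all genes. The median log2 differences of these lists were 2.85, 3.32, 4.63 and 2.23. All 6 fibroblast, all 6 endothelial and 5 of 6 smooth muscle markers were called lower in GE than in LE, beside 25.9% of all genes. The smooth muscle markers CNN1 and DES and the leukocyte marker CD68 were kept in neither the LE nor the GE table. TAGLN of smooth muscle and EMCN of endothelium were not kept in that of GE. For these genes the filter already favoured a higher level in BV and S. For TAGLN and EMCN it also favoured a lower level in GE than in LE. In GE the mean level of HOXA9, HOXA10 and HOXA11 was 10.2%, 10.2% and 9.20% of that in S, and that of HOXD8, HOXD9, HOXD10 and HOXD11 was 12.6%, 4.13%, 5.32% and 3.71%. The 6 fibroblast markers in GE ranged from 6.41% of S for COL3A1, which encodes a fibrillar collagen, to 10.5% for DCN, which encodes the matrix proteoglycan decorin. Summed endothelial markers in GE were 3.95% of S, near HOXD9 and HOXD11, smooth muscle ones 7.77% and leukocyte ones 18.4%. In LE the 7 genes ranged from 21.3% (HOXA10) to 49.8% (HOXD8) of S, and the markers from 14.6% (COL3A1) to 22.2% (LUM), while endothelial sums were 44.6%, smooth muscle sums 36.6% and leukocyte sums 26.1% of S. HOXA5 in GE, with 94.9% of S, lay far above these markers. In LE, with 56.6% of S, it lay far above the fibroblast markers but nearer to the endothelial sums. The values in GE differed between the groups, with HOXA10 at 6.24% of S in nonpregnant and 15.5% in pregnant gilts and HOXA11 at 5.53% and 14.7%. DCN was at 7.91% and 13.9%, PDGFRA at 7.05% and 11.97%, LUM at 7.95% and 10.8% and COL1A2 at 6.79% and 7.84% in the same groups. The other fibroblast markers were lower in pregnant gilts, with COL1A1 at 7.32% and 6.33% and COL3A1 at 6.62% and 5.98%. Summed fibroblast markers were at 6.91% and 7.105%. The part of RNA from these other cell types in the levels of LE and GE was not tested.

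**Figure D2:**
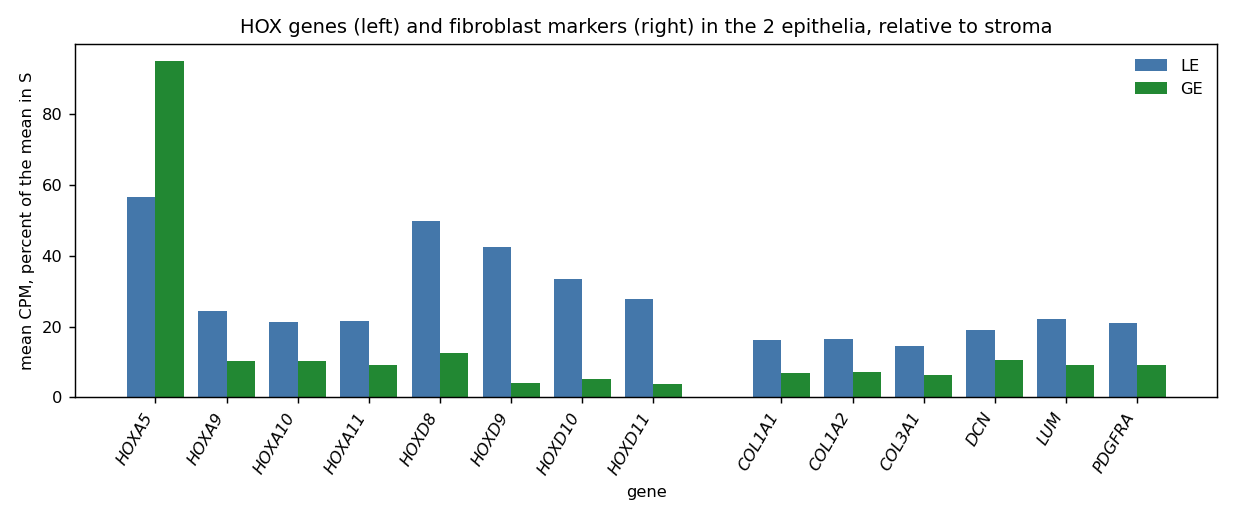
Mean CPM in LE (blue bars) and GE (green bars) as a percent of the mean in S (vertical axis, linear from 0), for the 8 HOX genes of the filtered tables on the left and 6 fibroblast markers on the right, over both pregnant and nonpregnant gilts and without error bars. Pooled over both groups, HOXA9 to HOXA11 in GE, near 10% of S, stand at about the height of the markers, and HOXA5 at 94.9% stands far above them.

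Per kilobase of exon, a scale on which genes can be compared with each other, HOXA11 was highest in nonpregnant S with 30.9 ± 4.09 CPM per kb (SD, n = 4), followed by HOXA10 with 21.3 ± 4.55, HOXA5 with 19.5 ± 0.144 and HOXD8 with 13.4 ± 3.75. HOXD10 (9.79 ± 3.07), HOXD9 (8.82 ± 2.59), HOXA9 (6.89 ± 1.46) and HOXD11 (6.24 ± 1.77) came next and HOXA7 last (0.225 ± 0.265). HOXA10 and HOXA5 lay within their spread of each other, and so did each neighbouring pair from HOXD8 to HOXD11. In nonpregnant GE the order was another one, with HOXA5 at 16.5 ± 2.99 CPM per kb ahead of HOXA11 (1.71 ± 0.433), HOXD8 (1.46 ± 1.05) and HOXA10 (1.33 ± 0.152), of which the last 3 did not differ beyond their spread.

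Between S and GE the direction changed along the HOXA cluster. HOXA11, HOXA10, HOXA9 and HOXA6 were called higher in S than in GE (HOXA6 58.4 against 7.31 CPM). HOXA5 was not called, and HOXA4, HOXA3 and HOXA2 were called higher in GE than in S. HOXA3 was kept in all 4 filtered tables, but HOXA4 only in that of GE and HOXA2 only in those of LE and GE. HOXA4 and HOXA2 thus entered the fit through GE, where they were highest, so that their calls are no independent support. HOXA2, a gene of hindbrain patterning at the other end of the cluster from HOXA11, was at 35.2 CPM in GE and 2.33 CPM in S (log2 S minus GE -4.27). Summed over the cluster, HOXA genes made up 159.2 CPM in GE and 398.5 CPM in S. HOXB genes had the opposite order, with sums of 361.4, 209.1, 69.1 and 51.6 CPM in LE, GE, BV and S, and HOXC genes did not exceed 13.9 CPM in sum. HOXD genes summed to 76.7, 13.5, 178.8 and 194.5 CPM in LE, GE, BV and S. Among the other HOX genes 14 were tested, of which 3 (HOXA6, HOXC6 and HOXD3) were called higher and 10 lower in BV and S than in LE and GE, beside 32.3% and 33.5% of all genes. HOXC6 was kept only in the BV table, and HOXD3 in those of LE, BV and S but not GE. Some genes lower in BV and S, such as HOXB2 and HOXB8, were kept only in those of LE and GE. For these genes the filter already favoured the direction found.

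**Figure D3:**
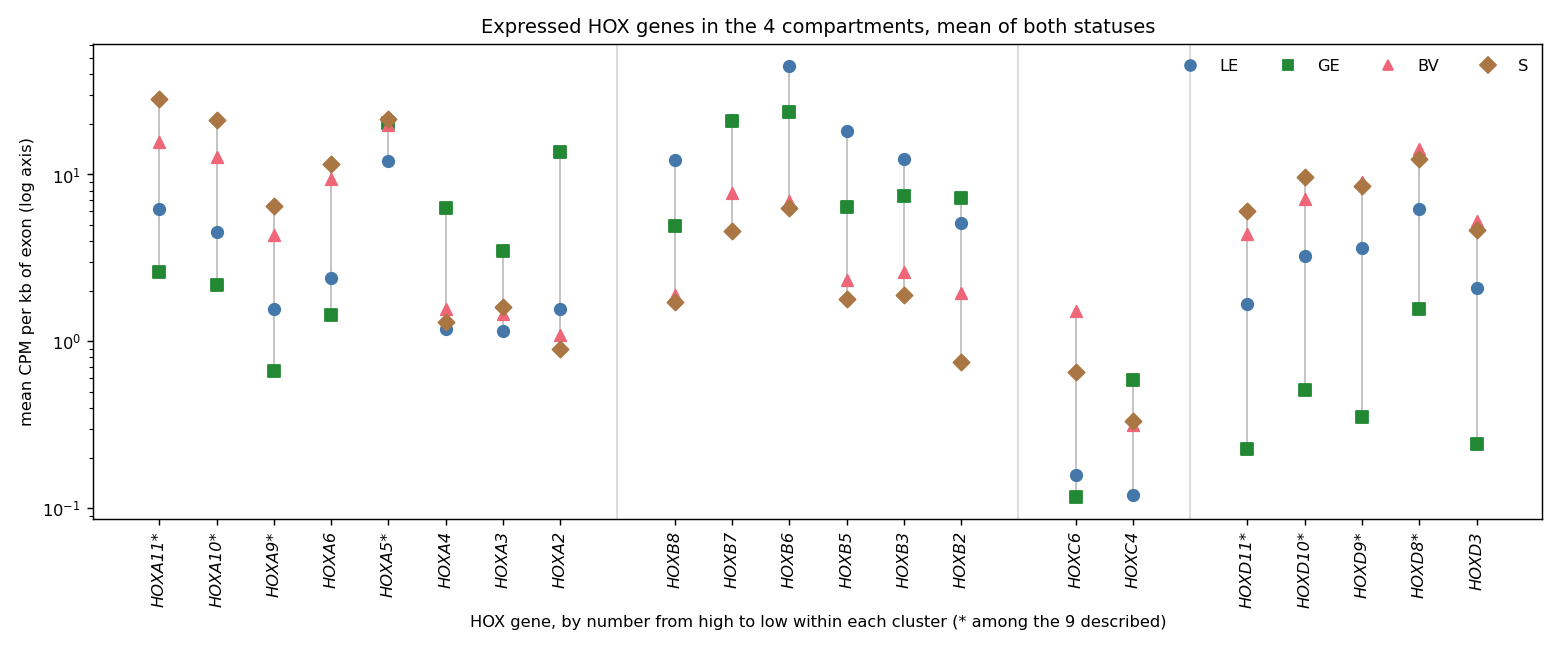
Mean CPM per kb of exon (vertical axis, logarithmic) in LE, GE, BV and S for HOX genes kept in at least 1 filtered table, ordered within each cluster from high to low number, over both pregnant and nonpregnant gilts, with asterisks at the genes described here. In the HOXA cluster the GE squares lie lowest from HOXA11 to HOXA6 and highest from HOXA4 to HOXA2, and in the HOXD cluster they lie lowest throughout.

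Pregnancy was compared within each compartment by the quasi-likelihood test of edgeR, where a gene was called in LE at an adjusted p of at most 1%, and in the other compartments at an unadjusted p of at most 0.000328, the largest p called in LE. None of the 8 genes in the fits was called in any compartment, where the test called 3.32% (LE), 0.748% (GE), 1.86% (BV) and 0.293% (S) of all genes. At an unadjusted p under 0.05 there were 3 genes in GE (HOXA5, HOXA10 and HOXA11), 2 in BV (HOXD8 and HOXD10) and none in LE or S, beside 23.0%, 28.5%, 26.9% and 14.5% of all genes in GE, BV, LE and S. In LE, BV and S the fitted differences ran from -0.43 to 0.53 on the log2 scale.

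HOXA10 in GE had the largest fitted difference. The libraries of nonpregnant gilts C128, C40, C42 and C78 held 45, 44, 56 and 59 reads of it, and those of pregnant gilts P139, P39 and P43 held 182, 87 and 76 reads. All pregnant libraries were above all nonpregnant ones, and gilt P139 was highest. The mean was 10.9 ± 1.25 CPM in nonpregnant and 27.1 ± 7.54 CPM in pregnant gilts (SD, n = 4 and 3). The fitted log2 difference was 1.30 ± 0.23 (2.46-fold), with an unadjusted p of 0.000429 in the quasi-likelihood test of edgeR and an adjusted p of 0.0436, short of the limit. Without each library in turn the difference ranged from 1.06 to 1.41. The robust GLM of edgeR, which the study used, called it (adjusted p = 0.000426, 1 of the 6 genes tested, beside 6.66% of all genes), and so did DESeq2 (adjusted p = 0.000271). The share of all genes that DESeq2 called was not counted in any compartment.

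HOXA11 in GE had 17, 14, 26 and 15 reads in nonpregnant and 38, 31 and 34 reads in pregnant gilts. Its groups did not overlap either. The fitted difference was 1.14 ± 0.30 (adjusted p = 0.0872) and it was called by none of the 3 tools. The fitted difference of HOXA5 was 0.62 ± 0.20 (adjusted p = 0.118) and that of HOXD10 0.83 ± 0.36 (adjusted p = 0.219), both without overlap between the groups. HOXA9 (0.82 ± 0.42) and HOXD8 (0.20 ± 0.63) overlapped. In all, 4 of the 6 genes in the GE table were higher in every pregnant than in every nonpregnant library, beside 11.6% of all genes, and the median of the 6 was 0.82 beside -0.01 over all genes.

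HOXD9 and HOXD11 were not in the filtered GE table. HOXD9 had 7, 2, 1 and 2 reads in nonpregnant and 8, 5 and 5 reads in pregnant GE, and HOXD11 had 3, 3, 3 and 4 reads against 5, 2 and 3. The exact two-sided permutation test on their CPM gave p = 0.114 and 0.457, where the smallest possible p is 0.0286.

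Among the markers in GE, summed leukocyte markers were 23.2 to 34.1 CPM in nonpregnant and 83.6 to 114.3 CPM in pregnant gilts, without overlap. Fibroblast markers were 2877.2 to 7532.8 CPM against 3619.4 to 6560.7 CPM, smooth muscle markers 15.1 to 178.4 CPM against 21.5 to 55.5 CPM, and endothelial markers 16.0 to 44.9 CPM against 18.1 to 176.7 CPM, all with overlap. Of the 6 fibroblast markers, DCN (251.6 ± 65.0 against 439.4 ± 76.8 CPM, log2 0.80, adjusted p = 0.113) and PDGFRA (145.0 ± 25.8 against 237.3 ± 52.5 CPM, log2 0.70, adjusted p = 0.118) did not overlap between the groups, and the other 4 did, with log2 differences from -0.30 to -0.05. Up to 3 of 6 smooth muscle markers and 1 of 6 endothelial and leukocyte markers were at 0 in a library. Gilt P139, with the highest HOXA10, had the lowest fibroblast sum of the pregnant gilts (3619.4 CPM) and the highest leukocyte (114.3 CPM), endothelial (176.7 CPM) and smooth muscle (55.5 CPM) sums. The part of RNA from these cell types in the GE levels was not tested.

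**Figure D4:**
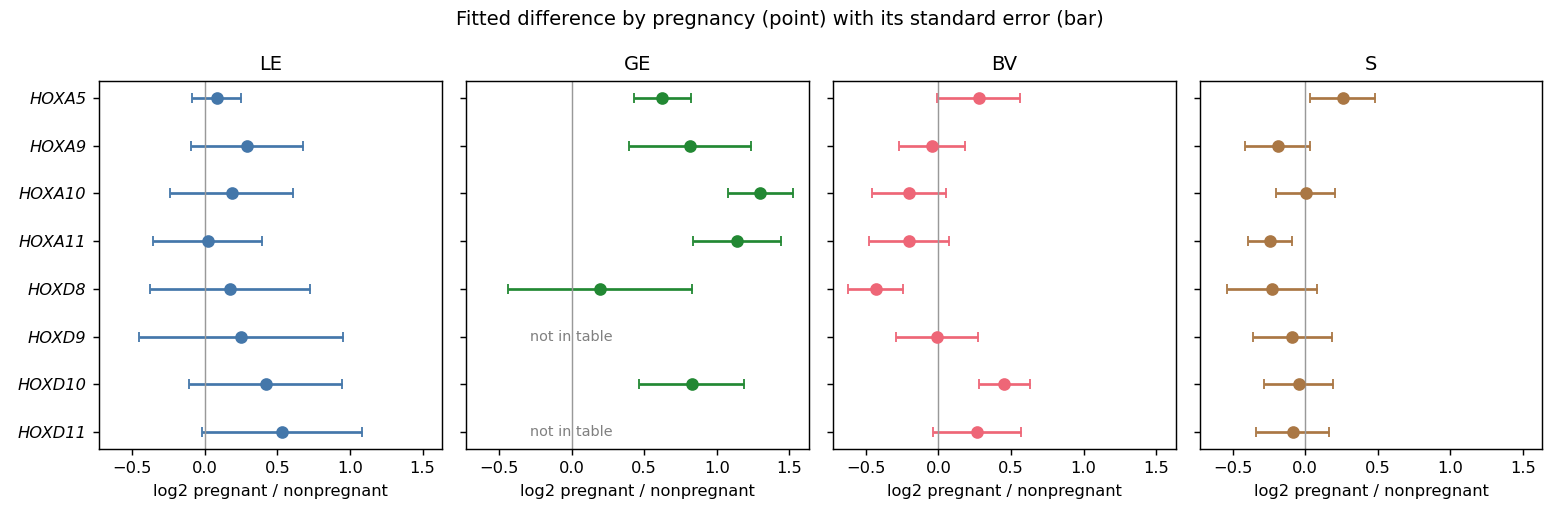
Fitted log2 ratio of pregnant to nonpregnant (horizontal axis, point) with its standard error (bar) for the 8 HOX genes of the filtered tables in LE, GE, BV and S, from the quasi-likelihood test of edgeR. The GE points of HOXA10 (1.30) and HOXA11 (1.14) lie farthest from 0, and HOXD9 and HOXD11 have no GE value because they are not in that filtered table.

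In LE the group means were close and the spread wide. HOXA10 averaged 35.3 ± 20.2 CPM in nonpregnant and 39.2 ± 18.6 CPM in pregnant gilts (SD, n = 4 each), and HOXA11 13.9 ± 7.56 and 13.8 ± 1.61 CPM. All 8 differences were positive, between 0.02 (HOXA11) and 0.53 (HOXD11), with adjusted p of 0.582 or more, and those of HOXA9, HOXA10 and HOXA11 were -0.02, -0.33 and -0.27 without the libraries of gilts C78 and P139. The robust GLM called none of the genes in LE, BV or S, where it called 11.8%, 11.0% and 3.16% of all genes.

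In BV the smallest p-values belonged to a pair of HOXD genes that went in opposite directions. HOXD8 was at 61.9, 65.6, 85.7 and 62.0 CPM in nonpregnant and 41.03, 52.3, 66.7 and 42.7 CPM in pregnant gilts, a difference of -0.43 ± 0.19 (adjusted p = 0.165). HOXD10 was at 60.2, 44.4, 55.6 and 41.6 CPM in nonpregnant and 57.5, 86.4, 63.2 and 67.5 CPM in pregnant gilts, a difference of 0.45 ± 0.18 (adjusted p = 0.127). The groups overlapped for both genes. Smooth muscle markers in BV summed to 6005.9 to 18132 CPM in nonpregnant and 1075.1 to 6866 CPM in pregnant gilts, 5 of the 6 were called lower by the robust GLM, and their part in the BV differences was not tested. In S the differences ran from -0.24 ± 0.15 for HOXA11 to 0.26 ± 0.22 for HOXA5, and HOXA10 had the same mean of 175 CPM in both groups.

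Whether the effect of pregnancy differed between the epithelia (LE and GE) and BV and S was tested as an interaction in the joint fit. The epithelial effect exceeded the other by 0.86 ± 0.24 for HOXA11 (adjusted p = 0.0364) and by 0.71 ± 0.26 for HOXA10 (adjusted p = 0.109). The same difference was 0.85 ± 0.22 for the fibroblast marker DCN (adjusted p = 0.0246). Its median was 0.60 over the 6 fibroblast, 0.81 over the 6 endothelial and 0.60 over the 5 leukocyte markers tested. Over the 6 smooth muscle and 8 epithelial markers it was 0.36 and -2.27. None of these markers was called, and their part in the HOX values was not tested. For the others of the 8 HOX genes adjusted p was 0.264 or more, with intervals such as -0.41 to 0.55 for HOXA5. None of the 8 was called at 1%, where 1.21% of all genes were, and none by the test over the 4 compartments, where 1.94% of all genes were and HOXA11 had the smallest adjusted p of the 8 (0.0482).

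HOX proteins bind DNA together with cofactors of the TALE family, and these were also higher outside the epithelia. Of 9 listed, all 9 were in the joint fit and 8 were called higher in BV and S than in LE and GE, beside 32.3% of all genes. Among the 8 were MEIS1 (1.82) and MEIS2 (2.91). MEIS3 was kept only in the filtered tables of BV and S, and MEIS2 and PBX4 were not kept in that of GE. For these genes the filter already favoured the direction found. PBX3 was not called (-0.15). None of the 9 was called for pregnancy by the quasi-likelihood test. MEIS1 in GE was called higher in pregnant gilts by the robust GLM and DESeq2, with 9.70 ± 3.07 against 31.5 ± 9.80 CPM (log2 1.68 ± 0.31, adjusted p = 0.0455 by the quasi-likelihood test). Of all genes in GE, the robust GLM called 6.66%.

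Chromatin regulators that hold HOX clusters off or on showed no common order. Of 9, 3 were called higher in BV and S (among them EZH2, the methyltransferase of the Polycomb complex, by 0.72) and 3 lower (among them KDM6A, a demethylase that acts against it, by -0.53), beside 32.3% and 33.5% of all genes. KDM6B, its relative, rose with pregnancy in BV (14.3 to 33.8 CPM, log2 1.25 ± 0.23, adjusted p = 0.0173). It was the only one called by the quasi-likelihood test or the robust GLM. DESeq2 called it too, and also KMT2A as higher in pregnant LE (291.5 to 401.1 CPM, adjusted p = 0.00889). In the BV comparison the robust GLM called 5 of 6 smooth muscle markers lower and all 7 epithelial markers tested higher, beside 11.0% of all genes in either direction. The part of either in the rise of KDM6B was not tested. Of 6 genes beside the clusters, 4 were tested. LNPK, next to HOXD, was higher in BV and S by 0.89, and SKAP2, next to HOXA, was higher in LE and GE (-2.22) and fell in pregnant LE from 97.3 to 48.7 CPM (log2 -0.98 ± 0.18, adjusted p = 0.00978).

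Steroid hormones and retinoic acid set the level of HOX genes in many tissues. Of 6 receptors listed, 5 were tested. PGR, the progesterone receptor (1.30), RARA (1.81), RARB (1.32) and RARG (1.43) were called higher in BV and S than in LE and GE. RARB was not in the filtered GE table, so that the filter favoured the direction found for it. ESR1, the oestrogen receptor, was lower (-0.35). Over all genes 32.3% were called higher and 33.5% lower. None of the 5 receptors was called for pregnancy by the quasi-likelihood test. ESR1 in GE was called lower in pregnant gilts by the robust GLM and DESeq2 (480.4 ± 113 against 217.2 ± 52.4 CPM, log2 -1.15 ± 0.24). Of 5 genes that HOXA10 acts on in the uterus of other species, 3 were tested and none was called by the quasi-likelihood test. The robust GLM and DESeq2 called EMX2, a homeobox gene that HOXA10 represses, in GE, where it was higher in pregnant gilts (35.5 ± 3.25 against 65.9 ± 8.90 CPM, log2 0.88 ± 0.15), and ITGB3, an integrin of embryo attachment, in LE (3.79 ± 3.25 against 49.4 ± 23.7 CPM, log2 3.72 ± 0.68). Of all genes, the robust GLM called 6.66% in GE and 11.8% in LE.

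Among the HOX genes outside the 9, HOXB3 and HOXB5 were called higher in pregnant BV, from 12.2 to 28.6 CPM (log2 1.24 ± 0.18, adjusted p = 0.013) and from 3.35 to 13.9 CPM (log2 2.08 ± 0.37, adjusted p = 0.0166), and HOXB6 by the robust GLM only. Epithelial markers in BV summed to 3.69 to 51.6 CPM in nonpregnant and 173.9 to 328.2 CPM in pregnant gilts, 5 of 6 smooth muscle markers were called lower there by the robust GLM, and the part of either in the rise of these HOXB genes was not tested. HOXA3, whose gene model spans HOXA5 and shares exon bases with it, had a called interaction, with an effect in LE and GE lower than that in BV and S by 0.97 (adjusted p = 0.00726). The 8 epithelial markers had a median of -2.27 in the same comparison, with none called, and their part in the HOXA3 value was not tested.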

How the data were processed

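RNA of laser-captured endometrium was made into single-read libraries with a low-input kit. By the study's methods, the authors used Trim Galore for trimming, Hisat2 with the Sscrofa11.1 genome for mapping and QuasR for counting, and took out PCR duplicates. Versions and the strand setting are not given in the sources used here. The deposited values are raw counts per gene, in full tables of 30185 genes and in filtered ones. Pregnant and nonpregnant libraries were compared on the filtered counts by the quasi-likelihood test of edgeR 4.0.16 (R 4.3.3, TMM, Benjamini-Hochberg adjustment). Compartments were compared in 1 joint fit with the gilt as a block, since the labels give the compartments of a gilt the same number. Robust GLM, DESeq2 1.42.0, RLE, other filters and left-out libraries were alternatives, and the fits were tested on simulated data. Members and lists were chosen with earlier results of these data known. Named were the 9 members, list genes called for pregnancy or high in CPM, and the 2 genes most alike to each member by r of log2(CPM + 1). Other list genes were named after their values were seen. Some genes and sequences are not reported here.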

Additional observations from a re-analysis of the deposited data

Results flagged for a closer look

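Of 54 groups of 4 libraries tested for a value far from the others, 3 had one, where chance gives about 1 in 20. HOXA10 in LE of nonpregnant gilt C128 was 65.3 CPM against at most 28.6 CPM in the other 3 gilts of its group. This gilt was also highest of its group in BV (183.9 CPM) and S (226.8 CPM), and its LE library held the most smooth muscle markers of LE (459.8 CPM). HOXD8 in BV of nonpregnant gilt C42 was 85.7 CPM against at most 65.6 CPM in the other 3. HOXD8 in S of pregnant gilt P139 was 82.1 CPM against at most 41 CPM in the other 3, while in LE of the same gilt it was the lowest of its group (9.26 CPM). The S library of this gilt had the highest endothelial sum of its group, 2753.8 CPM against 921.4 to 1847.6 CPM, and the lowest fibroblast sum, 40803 CPM against 64700 to 94345 CPM, and their part in this value was not tested.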

How the results depend on the processing

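The 7 HOXA and HOXD genes other than HOXA5 and HOXA7 were called higher in BV and S than in LE and GE, by compartment means, with TMM, RLE or DESeq2, with or without the block, and without each gilt. HOXD9 and HOXD11 have no value when only genes in all 4 filtered tables are kept. For the interaction the block changed no call of the 8 genes. The number called higher in S than in BV was 2 with the gilt as a block, 1 with no replicate block, and 1 to 2 without each gilt. In GE the number called by pregnancy was 0 by the quasi-likelihood test, beside 0.748% of all genes. It was 1 (HOXA10) by the robust GLM, beside 6.66% of all genes, by DESeq2 and at a false discovery rate of 5%. The shares of all genes in the last 2 cases were not counted. Uncalled pregnancy differences changed sign as follows, all on the log2 scale. HOXA10 in BV was 0.0051 and HOXD10 in S 0.0085 by the robust GLM, HOXA10 in S was -0.0051 without a filter and -0.00017 in 1 fit of 8 groups, which also gave HOXA11 in LE -0.0029. Without 1 library, HOXA10, HOXA11, HOXD8 and HOXD9 in LE ranged from -0.17 to 0.64, -0.25 to 0.36, -0.15 to 0.50 and -0.14 to 0.67, HOXD8 in GE from -0.37 to 0.72, HOXA9, HOXA10, HOXA11 and HOXD9 in BV from -0.20 to 0.15, -0.35 to 0.14, -0.35 to 0.094 and -0.31 to 0.13, and HOXA10, HOXD9, HOXD10 and HOXD11 in S from -0.12 to 0.15, -0.26 to 0.029, -0.20 to 0.17 and -0.22 to 0.12. The interaction of HOXA5 ranged from -0.064 to 0.18 without 1 gilt. Leaving out the LE libraries of gilts C78 and P139, chosen after seeing the data, gave HOXA9, HOXA10 and HOXA11 in LE -0.022, -0.33 and -0.27. The causes were not tested. With 1 to 8 reads of HOXD9 per GE library, its difference between 0.650 and 1.46 CPM was not detectable at this depth.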

Other observations

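LOC102160006, on the minus strand beside HOXA11, was at 16.0 CPM in S, 8.18 in BV, 3.20 in LE and 1.61 in GE, the order of HOXA11. LOC106506838, on the minus strand beside HOXA2, was at 14.9 CPM in GE, 2.35 in LE, 2.13 in BV and 0.630 in S. HOXA2 was likewise highest in GE.

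The genes most like each member over the 31 libraries, by Pearson's r of log2(CPM + 1) as a description, were LOC110255584 (0.98) and GPR173 (0.97) for HOXA9, LOC102160410 and LOC110255584 (0.96 each) for HOXA10, and LOC110257274 (0.98) and OSR2 (0.97) for HOXA11. For HOXD8 they were COL4A5 (0.96), a basement membrane collagen, and FOXN2 (0.95), for HOXD9 STARD8 and NRP1 (0.97 each), for HOXD10 CRISPLD2 and CHST3 (0.97 each) and for HOXD11 ADGRA2 and IGDCC4 (0.97 each). HOXA5 had no gene as close, with LOC110259437 and RBM12B at 0.79. The libraries come from the same 4 compartments and 8 gilts.

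Correlations between members over all libraries and within single compartments are given as a description, over 7 or 8 libraries in the latter. HOXA10 and HOXA11 had r = 0.96 over the 31 libraries and 0.60, 0.82, 0.73 and 0.52 within LE, GE, BV and S. HOXA10 and HOXD10 had r = 0.85 over all and -0.21, 0.59, 0.05 and 0.04 within them, whereas HOXD8 and HOXD10 in LE had r = 0.98.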
